A study of Rattus norvegicus with 6 samples.

Results

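miR-320-3p and miR-484 are microRNAs (miRNAs) whose precursors reach Dicer without being cut by Drosha. They were 2 of the 763 mature miRNAs listed for exosomes, the small vesicles that cells release, from rat mesenchymal stem cells (MSCs), and were picked by exact name. Both were taken for their non-canonical precursors, and miR-320-3p also for its rise after nicorandil and for its excess in 1 nicorandil library. The treatment difference of miR-320-3p and its level in nicorandil replicate 3 are therefore described below without a test.

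Small RNA was sequenced from vesicles that an isolation reagent recovered from the culture supernatant of wild-type RBMSC cells, labelled as mesenchymal stem cells. One group of 3 libraries came from cells with no treatment and the other group of 3 from cells pretreated with 200 µM nicorandil, a nitric oxide donor and opener of ATP-sensitive potassium channels used against angina, for 24 h. The comparison asked how nicorandil pretreatment changes the miRNA cargo. No label ties the libraries of a group to separate cultures, so p-values measure only the spread between these libraries, which may be technical. In such bulk libraries, vesicles from fewer cells of a type and less of a miRNA per cell cannot be told apart.

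Most miRNAs are transcribed within long primary transcripts, from which Drosha and its partner DGCR8 cut a hairpin that Dicer then trims to a duplex. The miR-320 hairpin is instead the whole primary transcript: it carries the methylguanosine cap of RNA polymerase II transcripts, leaves the nucleus through exportin 1 and is cut by Dicer alone, and its capped 5′ arm is poorly loaded into Argonaute. miR-484 is likewise made in cells that lack Drosha or DGCR8. In the heart miR-320 is known as a repressor of the small heat shock protein Hspb6, and miR-484 as a repressor of Fis1, a mitochondrial fission protein. Both miRNAs are also found in blood cells and plasma.

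In the RefSeq gene table of the rat assembly GRCr8 neither gene overlapped another gene. Mir320a lay between the protein-coding genes Polr3d, a subunit of RNA polymerase III, and Phyhip. Mir484 lay between Nde1, a centrosomal protein gene, and Marf1. The mature sequence of miR-484 lies at chr10:1394915-1394936 on the minus strand of GRCr8. It is shown with miRNAs of the same seed and of other non-canonical routes that the results below use; capitals mark the seed, bases 2 to 8, through which a miRNA pairs with its targets.
miR-484: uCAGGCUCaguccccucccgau
miR-344a-5p: uCAGGCUCcuggcuagauu
miR-702-3p: uGCCCACCcuuuaccccacucca
miR-1839-5p: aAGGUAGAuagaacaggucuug
miR-451-5p: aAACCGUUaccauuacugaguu
The seed of miR-484 was shared in RefSeq by miR-344a-5p and miR-344-5p and by none of the other non-canonical miRNAs shown. miR-344a-5p had 0 reads in all 6 libraries, so among the listed miRNAs with a RefSeq sequence only miR-484 itself had reads carrying this seed.

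The RefSeq hairpin of miR-484, at chr10:1394905-1394981 on the minus strand, is printed with the mature miRNA in capitals because it shows which side of the annotated precursor was counted.
rno-mir-484: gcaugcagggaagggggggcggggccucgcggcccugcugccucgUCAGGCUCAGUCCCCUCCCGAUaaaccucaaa
The mature miRNA took bases 46 to 67 of the 77 bases, near the 3′ end. G and C made up 63.6% of mature miR-484 against a median of 47.8% over the 109 tested miRNAs with a RefSeq sequence, of which 10, miR-484 included, had 63.6% or more. CCCU and GGCU, short motifs described for sorting of miRNAs into vesicles, were both found in miR-484, and GGAG, another such motif, was not. Searched on the mature strand only, CCCU was present in 9.33%, GGCU in 10.8% and GGAG in 8.16% of the 686 listed miRNAs with a RefSeq sequence. In miR-484 GGCU starts at base 4, within the seed, and CCCU at base 13, and a match describes the letters and not a site.

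The libraries were shallow and unequal. Untreated depths were 2224, 2212 and 2338 miRNA reads, against 16628, 16324 and 8426 with nicorandil, a depth difference of 6.11-fold between the groups that cannot be told apart from the treatment. A count of 0 allows a share of up to 0.128% to 0.136% in an untreated library and up to 0.018% to 0.0356% in a nicorandil library, a limit of 3 reads that, like the intervals below, covers counting error only, since reads copied by PCR and lacking molecular identifiers need not be separate molecules. Untreated replicates 1 and 2 differed by no more than sampling noise (chi-square over miRNAs, p = 0.617), as did replicates 1 and 3 (p = 0.174), whereas replicates 2 and 3 differed (p = 0.0121). The deeper nicorandil libraries all differed from each other beyond sampling noise (chi-square p = 5.15e-13 for replicates 1 and 2, 1.83e-55 for 1 and 3 and 6.52e-58 for 2 and 3). The untreated libraries were kept as 3 libraries, and counted as 2 in an alternative. Of the mesenchymal miRNA markers, 10 of 10 had a read in at least 1 library, and together they took 27.3% to 28.0% of untreated and 26.2% to 31.3% of nicorandil reads. Most of this share was miR-143-3p, with 494, 512 and 521 untreated reads. The marker miR-145-5p had 0 reads in every untreated library and 16, 23 and 7 with nicorandil.

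miR-320-3p was among the abundant miRNAs of these exosomes. It had 47, 48 and 51 reads in the untreated libraries and 513, 492 and 538 in the nicorandil libraries. Nicorandil replicate 3 thus held the most miR-320-3p reads of any library, although its depth was the lowest of the nicorandil libraries. As a share of all miRNA reads the untreated libraries were at 2.11%, 2.17% and 2.18%, with 95% Wilson intervals that together span 1.59% to 2.87%. The nicorandil libraries were at 3.09% (2.83% to 3.36%), 3.01% (2.76% to 3.29%) and 6.38% (5.88% to 6.93%). The 3 untreated libraries lay together, nicorandil replicates 1 and 2 lay together above them with intervals that reached slightly into the untreated ones, and nicorandil replicate 3 lay apart from every other library.

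**Figure D1:**
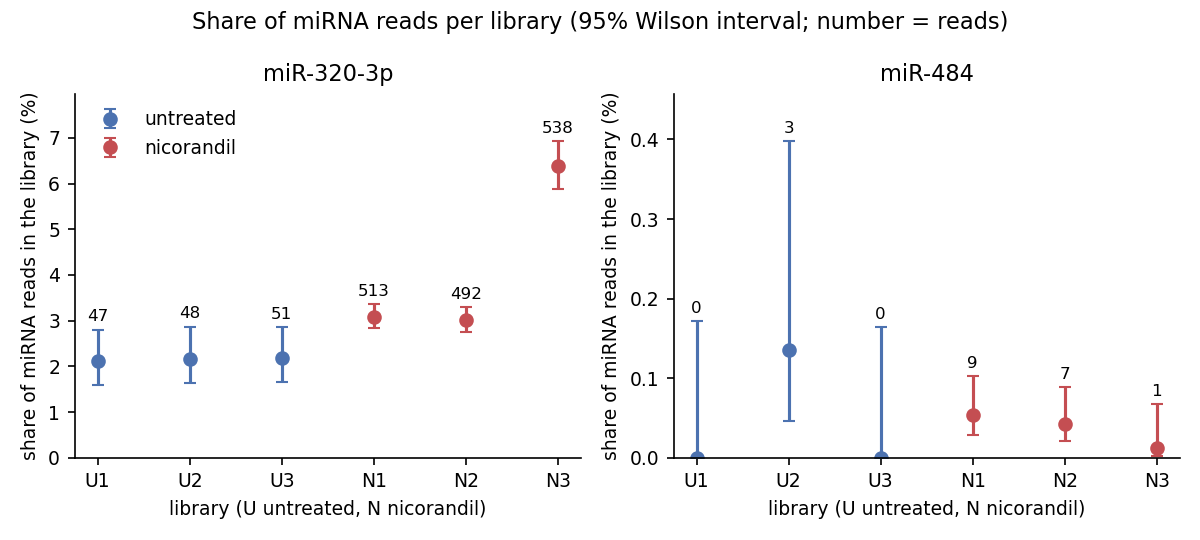
Share of all miRNA reads (y axis, %) of miR-320-3p (left) and miR-484 (right) in each library (x axis; U untreated, N nicorandil, with the replicate number); bars are 95% Wilson intervals and the numbers above them are reads. For miR-320-3p the untreated libraries sit at 2.11% to 2.18% and N3 at 6.38%, while the intervals of miR-484 overlap between all libraries.

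In the deposited normalized reads, which place all libraries at 1 common size, miR-320-3p was at 91.68, 103.6 and 106.0 in untreated and 189.5, 192.3 and 417.0 in the nicorandil libraries. All nicorandil values lay above all untreated ones, as they did for 17.4% of the 121 tested miRNAs, and for miR-320-3p this belongs to what chose it. The means were 100.4 ± 7.66 and 266 ± 131 (SD, n = 3 each), 2.65-fold apart. The log2 fold change, taken as the difference of mean log2(value + 1), was 1.30 (SE 0.23), and the authors' deposited table gives 1.41. This SE is from limma, which pools spread across miRNAs, so it is not the spread of miR-320-3p alone.

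The size of the difference depended on nicorandil replicate 3 and on the scale. Without that library the log2 fold change was 0.92 and the difference in mean share went from 2.01 to 0.895 percentage points. Nicorandil replicates 1 and 2 alone were at 1.42-fold the untreated mean share, against 1.93-fold for all 3. Scaling to library totals moved the median over all 121 tested miRNAs from 0.23 to -0.12, a shift of -0.35, and gave 0.85 for miR-320-3p. Relative to those medians miR-320-3p was higher by 1.07 in the deposited values and by 0.97 under library totals.

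Ratios to another miRNA of the same library need no scaling between libraries. Against miR-143-3p, the most abundant miRNA and a mesenchymal and smooth muscle marker, miR-320-3p stood at 0.0951, 0.0938 and 0.0979 reads per read untreated and at 0.120, 0.117 and 0.305 with nicorandil. The groups did not overlap, but the exact 95% intervals of nicorandil replicates 1 and 2 (0.107 to 0.132 together) overlapped the untreated ones (0.0682 to 0.131 together). Against miR-423-5p, often considered as a reference miRNA, the ratios were 0.246, 0.265 and 0.298 untreated and 0.458, 0.433 and 0.748 with nicorandil. Here nicorandil replicates 1 and 2 lay closer to the untreated libraries than to nicorandil replicate 3 as well, yet the lowest bound in nicorandil, 0.389, was below the highest untreated bound, 0.410, which belongs to untreated replicate 3.

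Against miR-191a-5p, another candidate reference, the ratios were 0.662, 0.774 and 0.836 untreated and 1.33, 1.41 and 2.09 with nicorandil. miR-320-3p was thus the less abundant of the pair in every untreated library and the more abundant in every nicorandil library. The mean ratios in nicorandil were 1.89-fold, 2.03-fold and 2.13-fold the untreated ones for miR-143-3p, miR-423-5p and miR-191a-5p in turn. These means include nicorandil replicate 3, the highest each time, and the nicorandil SDs were 0.108, 0.175 and 0.418. A ratio also moves with its denominator. In the deposited values miR-143-3p, miR-423-5p and miR-191a-5p had log2 fold changes of 0.55, 0.34 and 0.25. Library totals shifted the median of all tested miRNAs by -0.35, so the sign of such small changes may depend on the scaling. In nicorandil replicate 3 the shares of these denominators were 0.815-fold, 1.25-fold and 1.37-fold their mean in nicorandil replicates 1 and 2. miR-103-3p could not serve as a denominator, with 0, 2 and 1 reads untreated and 14, 8 and 10 with nicorandil.

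**Figure D2:**
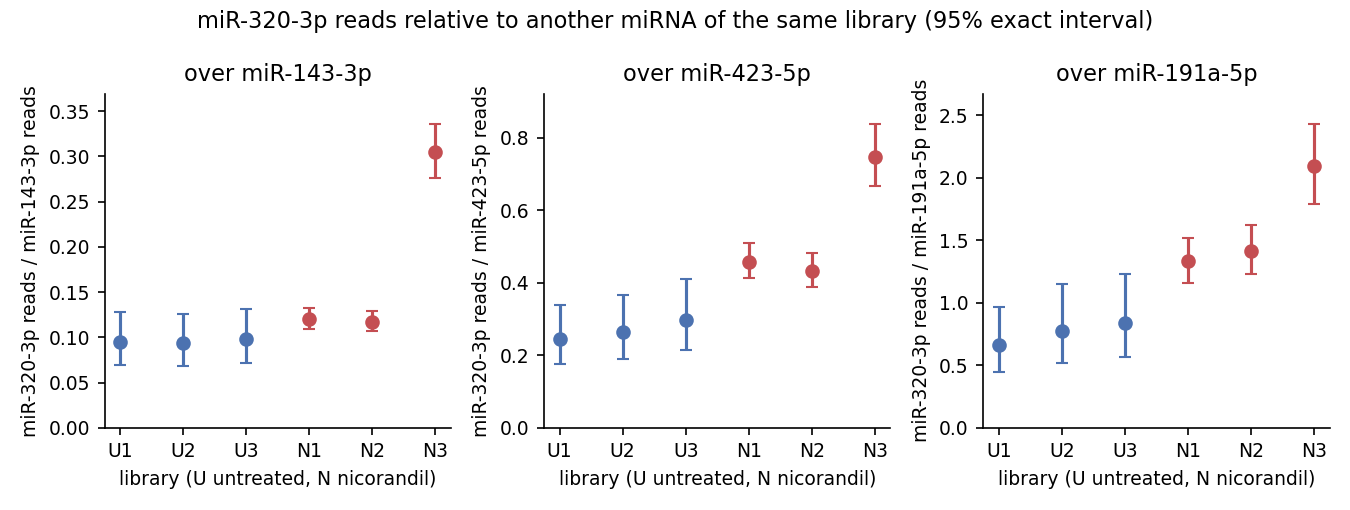
Reads of miR-320-3p per read of miR-143-3p (left), miR-423-5p (middle) and miR-191a-5p (right) on the y axes, by library on the x axes (U untreated, N nicorandil); bars are exact 95% intervals. All 3 nicorandil libraries lie above all 3 untreated ones in each panel, from 0.117 against at most 0.0979 for miR-143-3p to 1.33 against at most 0.836 for miR-191a-5p, and N3 is the highest throughout.

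Nicorandil replicate 3 was compared with replicates 1 and 2 for the 46 miRNAs with at least 100 reads over the nicorandil libraries. Its share of miR-320-3p was 2.09-fold the mean share in the other pair, an excess that belongs to what chose this member. It was the first of the 46 values. The next was miR-146b-5p, a regulator of innate immune signalling, at 1.77-fold, and no other reached 1.5-fold. The median of the 46 was 0.962-fold and the lowest 0.43-fold. On the log2(value + 1) scale, where miRNAs with few reads take part, the excess of 1.12 ranked 10 among the 121 tested.

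**Figure D3:**
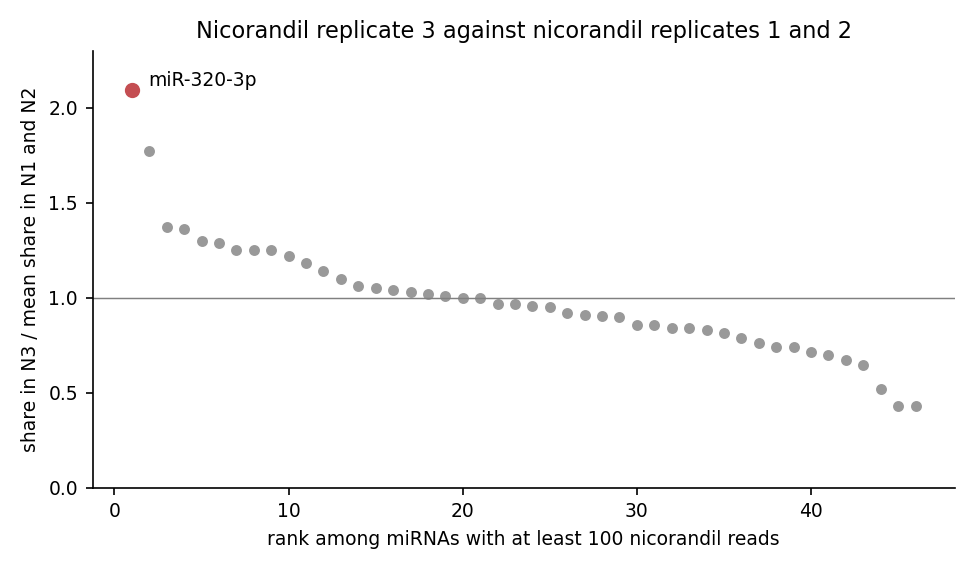
Share of reads in nicorandil replicate 3 divided by the mean share in nicorandil replicates 1 and 2 (y axis), for the 46 miRNAs with at least 100 nicorandil reads, ordered by rank (x axis); the grey line marks equal shares. miR-320-3p, chosen in part for this excess, is the first point at 2.09, and the median is 0.962.

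Marker lists of other cell types were set beside this excess. Blood cell markers, of which 6 of 8 had a read and miR-144-5p and miR-150-5p were at 0, took 0.678% to 0.854% of untreated reads and 0.337%, 0.263% and 0.415% of the nicorandil libraries in order. Their share was thus lower in every nicorandil library, where that of miR-320-3p was higher, and within nicorandil both were highest in replicate 3. Liver and gut markers, all 3 with a read, took 1.44% to 2.61% and then 0.463%, 0.496% and 0.617%. Endothelial markers (1 of 2 with a read, miR-126a-5p at 0) took 0.181% to 0.360% and then 0.0301%, 0.0306% and 0.0356%. Epithelial markers (5 of 5 with a read) took 0.181% to 0.385% and then 0.0301%, 0.0245% and 0.0119%. Liver and gut and endothelial shares were thus also highest in nicorandil replicate 3 among the nicorandil libraries, and the epithelial share was lowest there. No interval was computed for these marker shares. The mesenchymal share was lowest in nicorandil replicate 3, at 26.2% against 31.3% and 31.0%. The part of depth, of these markers or of this library in the miR-320-3p difference was not tested.

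miR-320-3p ranked 10, 9 and 8 by reads in untreated and 6, 5 and 4 in nicorandil libraries. A rank compares reads of different miRNAs, which also move with how well each is ligated. By mean deposited value it stood sixth, at 183, after miR-24-3p (317) and miR-328a-3p (193) and before miR-191a-5p (147) and miR-21-5p (142), a miRNA linked to cell survival and fibrosis. In the untreated libraries miR-328a-3p, at 177.8 to 247.6, and miR-191a-5p, at 128.2 to 136.6, were both above miR-320-3p without overlap, whereas miR-21-5p at 97.34 to 136.9 overlapped it. In nicorandil libraries miR-320-3p, at 189.5 to 417.0, overlapped miR-24-3p (305.1 to 342.9), miR-328a-3p (163.1 to 194.1) and miR-191a-5p (136.9 to 199.8) but lay above miR-21-5p (165.6 to 176.6).

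The opposite arm of the hairpin, miR-320-5p, had 0 reads in all 6 libraries, against 1689 reads of miR-320-3p. The profiles most like that of miR-320-3p, by root mean square distance of centred log2(value + 1) over the 6 libraries, were those of miR-222-3p (0.318), miR-148a-3p (0.375) and miR-99b-5p (0.409). miR-222-3p, a mesenchymal and vascular miRNA, was at 3.99, 4.352 and 4.242 normalized reads untreated and at 9.913, 6.321 and 11.8 with nicorandil. Its profile rests on few reads, 2, 2 and 2 untreated and 26, 18 and 15 with nicorandil. miR-148a-3p, at log2 fold change 1.11, and miR-99b-5p, at 0.95, were not highest in nicorandil replicate 3: miR-148a-3p was at 943.3, 1029 and 1017 and miR-99b-5p at 76.74, 55.68 and 71.04.

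miR-484 was scarce in both groups, and no difference was detectable at this depth. It had 0, 3 and 0 reads untreated and 9, 7 and 1 with nicorandil, or 0%, 0.136% and 0% against 0.0541%, 0.0429% and 0.0119% of the miRNA reads. All of its untreated reads came from replicate 2, whose share was the highest of the 6 libraries, and the Wilson intervals of all libraries overlapped. Summed over libraries its share was 0.0443% (3 reads) and 0.0411% (17 reads), a ratio of 0.928 with an exact 95% counting interval of 0.268 to 4.94. The mean share was 0.0452% ± 0.0783 and 0.0363% ± 0.0219 (SD, n = 3 each), and the exact two-sided permutation test gave p = 1 where 0.1 is the smallest that 3 against 3 libraries allow.

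In the deposited values miR-484 was at 0.2785, 5.069 and 0.3077 in untreated and 3.757, 2.805 and 0.5794 in nicorandil libraries. Untreated replicates 1 and 3, which had no read, are thus listed above 0. The log2 fold change was 0.50 (SE 0.76, 95% interval -1.12 to 2.11) with a limma adjusted p of 0.813, and the authors' deposited table gives 0.297. Of the tested miRNAs 21.5% passed the threshold of an adjusted p of 0.05. The log2 fold change was above 0 in all 6 fits without 1 library, but its size moved, to 1.24 without untreated replicate 2 and to 0.12 without untreated replicate 1. The difference in mean share changed sign with single libraries, from -0.00892 to 0.0363 percentage points without untreated replicate 2 and to 0.0033 without nicorandil replicate 3. None of these fits called miR-484.

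By mean deposited value miR-484 stood at place 99 of the 121 tested, at 2.13, between let-7e-5p (2.20) and miR-671 (2.19) above and miR-101b-3p (2.00) and miR-532-5p (1.87) below, with ranges that all overlapped its own. Its closest profiles were those of miR-345-3p (root mean square distance 0.485), miR-3473 (0.517) and miR-361-3p (0.656), each with its highest untreated value in replicate 2. These profiles rest on few reads and describe these libraries only.

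The pair of miRNAs differed widely in level. There were 48.7 reads of miR-320-3p per read of miR-484 over the untreated libraries and 90.8 over the nicorandil libraries, from 3 and 17 miR-484 reads. The log2 ratio of these ratios was 0.90, with an exact 95% interval of -1.51 to 2.69. That interval covers the counting error of the miR-484 reads only. It takes the miR-320-3p reads as fixed and leaves out the spread between libraries. Since miR-320-3p was chosen for its rise, the interval is a description and not a test. In single nicorandil libraries the ratio was 57.0, 70.3 and 538, the last from 1 miR-484 read, and in untreated replicate 2 it was 16.0. Nicorandil replicate 3 was thus the library with the highest share of miR-320-3p and, among the nicorandil libraries, the lowest of miR-484.

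A list of 14 miRNAs from non-canonical routes was described beside the pair. All 14 were listed, 8 had a read and 5 passed the filter of a mean value of 1. Besides miR-320-3p, none of the other 4 tested passed in limma (adjusted p from 0.703 to 0.860), and 0 had an unadjusted p under 0.05. Likewise 0 of the 4 passed with edgeR's quasi-likelihood test, with limma-voom or with DESeq2, which gave an adjusted p for 3 of them. Over all tested miRNAs these tests called 21.5% (limma), 17.4% (quasi-likelihood), 15.7% (limma-voom) and 12.5% (DESeq2).

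Among these 4, miR-451-5p, a red blood cell miRNA that is cut by Argonaute 2 in place of Dicer, had 3, 3 and 9 reads untreated and 21, 16 and 13 with nicorandil, at a log2 fold change of -0.27 (SE 0.44). miR-702-3p, from a mirtron, an intron whose splicing frees the hairpin, had 0, 0 and 2 and then 3, 6 and 1 reads, at 0.30 (SE 0.74). miR-1839-5p, from a small Cajal body RNA gene, had 0, 1 and 4 and then 9, 3 and 0 reads, at -0.69 (SE 0.79). These 3 overlapped between the groups. The median log2 fold change of the 5 tested was 0.30, or 0.02 without miR-320-3p, beside 0.23 for all tested miRNAs. With a pseudocount of 0.1 or 10 in place of 1 the median of the 5 was 0.93 or 0.03, and without 1 library it ranged from -0.07 to 0.53.

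Of the other list members, the mirtrons miR-1224 and miR-877 had 2 reads and 1 read in all, and miR-664-3p, from small nucleolar RNA genes, had 2. The 2 reads of miR-1224 were both in untreated replicate 2, and the reads of miR-877 and miR-664-3p were all in nicorandil replicate 1. The remaining 6, miR-320-5p, miR-702-5p, miR-668, miR-664-1-5p, miR-664-2-5p and miR-1839-3p, had 0 reads in all libraries.

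**Figure D4:**
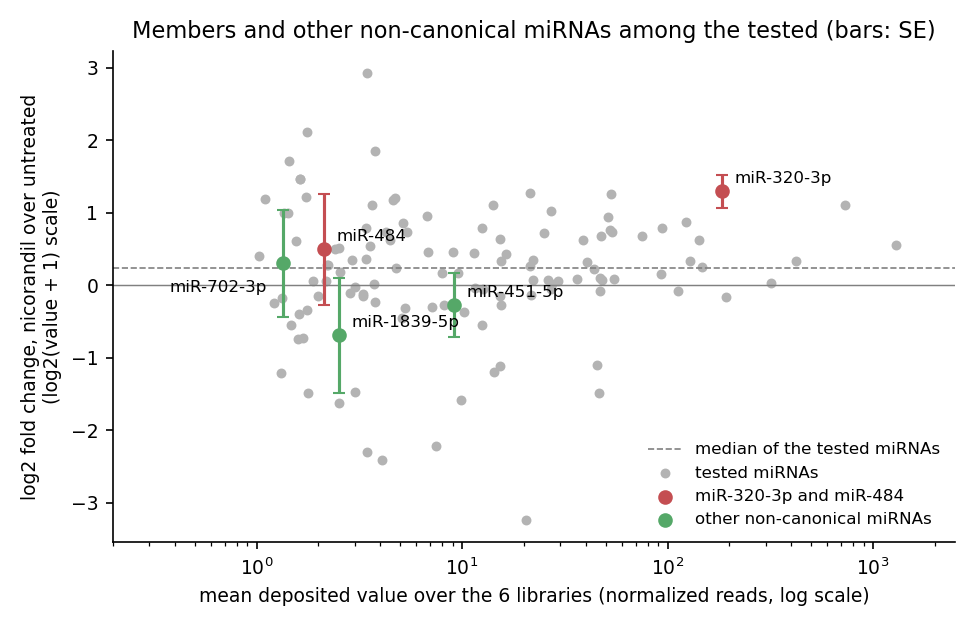
log2 fold change of nicorandil over untreated (y axis, log2(value + 1) scale) against the mean deposited value over the 6 libraries (x axis, log scale) for the 121 tested miRNAs (grey), with miR-320-3p and miR-484 in red and 3 other non-canonical miRNAs in green; bars are the SE and the dashed line is the median of 0.23. miR-320-3p lies at 1.30 with an SE of 0.23, and miR-484 at 0.50 with an SE of 0.76.

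Across the other settings run miR-320-3p stayed above 0, between 0.85 with library totals and 1.49 without nicorandil replicate 1 on the log2 scale. That rise belongs to what chose miR-320-3p. miR-484 ranged from -0.08 with DESeq2 to 1.24 without untreated replicate 2, with adjusted p from 0.428 to 0.989.

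**Figure D5:**
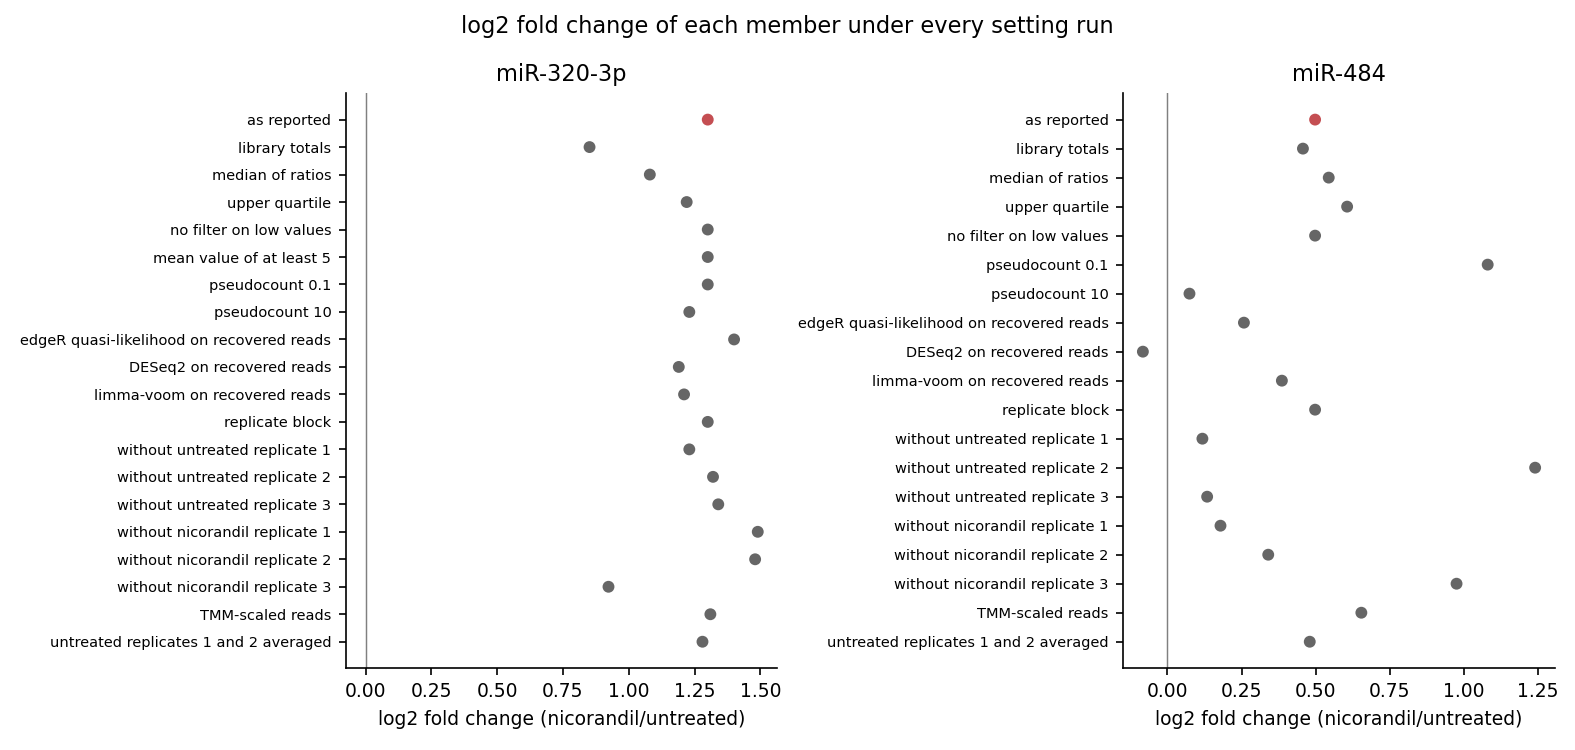
log2 fold change of nicorandil over untreated (x axis) of miR-320-3p (left) and miR-484 (right) under each setting (y axis), with the reported value in red. The points of miR-320-3p lie between 0.85 and 1.49 and those of miR-484 between -0.08 and 1.24.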

How the data were processed

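Exosomal small RNA was ligated to adapters, amplified, size-selected and sequenced single-end, per the labels' protocols. FastQC, Bowtie and edgeR were used, per the submitters' processing notes; versions, genome build and annotation were not given in the sources used here. For each miRNA and library the authors deposited a normalized read signal that matched edgeR pseudo-counts, which are reads adjusted by quantiles to 1 common library size. Inverting that adjustment (dispersion 0.0272) gave whole reads for 100% of the 763 miRNAs (relative tolerance 1e-05, largest mismatch 1.7e-09). The deposited table also holds the authors' log2 fold change and unadjusted p-value, per the file headers.

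Groups came from the sample titles, with 3 libraries each. limma 3.58.1 (R 4.3.3) with an intensity trend was run on log2(value + 1) of the deposited values for the 121 miRNAs with a mean of at least 1, without covariates, with Benjamini-Hochberg adjusted p under 0.05 as the threshold. Fold changes on this scale understate those of low miRNAs. The test was also run on simulated data, whose outcome is not given here and is not used for how the test does at these depths. Shares and ratios used the recovered reads, with 95% Wilson or exact intervals. Alternatives were other scalings, filters and pseudocounts, edgeR 4.0.16, DESeq2 1.42.0, limma-voom, a replicate block and left-out libraries; TMM-scaled reads and averaged untreated replicates 1 and 2 were added after the data were seen.

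Named besides the members were the other arm, the non-canonical list, same-seed miRNAs, 3 closest profiles and 4 level neighbours per member, and miR-143-3p, miR-423-5p, miR-191a-5p and miR-103-3p as denominators; miR-146b-5p was chosen after its value was seen. The members and lists were chosen with earlier results of these data known. Sequences are from RefSeq (GRCr8), which matched 686 of the 763 miRNAs and 7 of the 8 list members with a read.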

Additional observations from a re-analysis of the deposited data

How the results depend on the processing

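The log2 fold change and the share difference of miR-320-3p kept their direction in all 19 and 8 alternatives. Since this rise chose miR-320-3p, the kept direction is a description and not a test. Without 1 library the 2 values ranged from 0.92 to 1.49 and from 0.895 to 2.58 percentage points. miR-484 passed in none of its 18 fits. Its log2 fold change turned to -0.08 with DESeq2 (-0.0827), and without 1 library it ranged from 0.12 to 1.24; its share difference ranged from -0.0315 to 0.0363 percentage points. A minimum mean of 5 left miR-484 out, and its ratio to miR-320-3p had no value without untreated replicate 2, where no read is left; otherwise the log2 ratio of ratios ranged from 0.37 to 1.52. The median of the non-canonical list was 0.30 and ranged from -0.07 to 0.53 without 1 library; it was 0.93 with a pseudocount of 0.1 and 0.03 with a pseudocount of 10.

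Against 26 called miRNAs (17 higher and 9 lower), there were 13 under upper-quartile scaling (6 and 7), 15 under median-of-ratios scaling (6 and 9), 15 under library totals (4 and 11), 14 by DESeq2 (5 and 9), 19 by limma-voom (9 and 10) and 11 to 21 without 1 library, the lowest without nicorandil replicate 2. The cause was not tested, beyond fewer samples in the fits without a library. A replicate block gave 26 calls and an adjusted p of 0.802 for miR-484. No pairing of the libraries by replicate number was seen: deviations of same-numbered libraries correlated at 0.0088, 0.044 and -0.03, and 1 of 6 libraries correlated best with its own number. At these depths counting noise could hide a pairing. Depth limits what can be said of miR-484, which had 3 untreated reads.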
